A study of Drosophila melanogaster with 4 samples.

Results

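The regions described here are the H2Av-enriched stretches of chromosome 4 and of the sequence beside the centromeres of 2L, 3L and 3R in Drosophila melanogaster S2-DRSC cells. They were taken from the list that the authors deposited for both replicates together, named the combined list below, and were not chosen by score. A region belonged to a block when its midpoint lay anywhere on chromosome 4, in the last 1.5 Mb of 2L or 3L, or in the first 1.5 Mb of 3R, with arm lengths from the file headers. This gave 400 of the 4698 regions of the combined list (8.51%), with 119 on chromosome 4, 124 on 2L, 76 on 3L and 81 on 3R. S2-DRSC is a male, embryo-derived cell line, and all 4 libraries came from cells given double-stranded RNA that targets GFP, which has no counterpart in the fly, so there is a single, control RNAi condition. H2Av was precipitated in 2 libraries with a rabbit polyclonal antibody, number 9751, and 2 further libraries held input chromatin. Each precipitated library has its own list, with 4198 regions in replicate 1 and 4070 in replicate 2. Lists of the inputs were not used here. Read depth is unknown, since the lists give no counts, and no label says that the replicates came from separate cultures, so their spread may be technical. With 1 condition and 2 replicate lists there were no groups of samples to test. Differences between blocks are given as values, set beside the spread between the replicate lists, with 95% Wilson intervals for shares that cover counting error only and treat neighbouring regions as independent.

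H2Av is the H2A variant of the fly, doing the work that H2A.Z and H2A.X share out in mammals. In euchromatin it is best known from the nucleosomes just downstream of active gene starts, and it also takes part in heterochromatin formation, where its loss weakens silencing of genes placed beside heterochromatin. Pericentric chromatin of the long arms is rich in repeats and is packaged with H3K9 methylation and the protein HP1a. Chromosome 4 carries the same marks over much of its length, yet its genes are expressed, and the chromosome-specific protein POF binds it. The release 6 gene table lists 80 protein-coding genes on chromosome 4. Positions below are those of FlyBase release 5, so genes at these positions were not analysed here and no sequence was read.

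With regions of every score counted, H2Av regions covered far more of chromosome 4 and of the end of 2L than of the 3L and 3R blocks. Coverage of chromosome 4 was 38.2% in replicate 1 and 36.9% in replicate 2 (37.6% ± 0.9, SD, n = 2), and 47.5% in the combined list. The 2L block had 33.6% and 31.0% in the replicate lists (32.3% ± 1.8, SD, n = 2) and 43.1% in the combined list. The 3R block had 22.1% and 21.1% (21.6% ± 0.7, SD, n = 2), with 25.9% in the combined list. The 3L block was lowest, with 14.9% and 13.3% (14.1% ± 1.1, SD, n = 2), and 21.2% in the combined list. The order chromosome 4, 2L, 3R, 3L was the same in all 3 lists, and no value of one block in the replicate lists fell within the range of another. The rest of 2L, 3L and 3R, which is these arms outside the 1.5 Mb windows, was covered to 13.0% and 12.6% in the replicate lists and 14.6% in the combined list. Chromosome 4 thus had 2.94 and 2.92 times the coverage of the rest in the replicates, the 2L block 2.59 and 2.46 times, and the 3R block 1.70 and 1.67 times. For 3L the ratios were 1.15 and 1.06 in the replicates and 1.45 in the combined list. Regions were also more numerous per length in the blocks. The combined list had 88.0 per Mb on chromosome 4, 82.7 on 2L, 54.0 on 3R and 50.7 on 3L, against 31.3 on the rest of the arms.

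The authors' score, deposited without a stated scale, separated the blocks in another order. Median scores in replicates 1 and 2 were 1.62 and 1.94 on 3R, 1.07 and 1.05 on chromosome 4, 0.78 and 0.82 on 3L, and 0.72 and 0.65 on 2L. On the rest of the arms they were 1.78 and 1.95, so 3R alone among the blocks had medians close to those of the arms. In the combined list 36.2% of the regions on the 6 arms, which are X, 4, 2L, 2R, 3L and 3R, scored below 1, a limit taken from the 2-peaked distribution of scores. The share below 1 was 77.4% on 2L (96 of 124, interval 69.3 to 83.9), 67.1% on 3L (51 of 76, 55.9 to 76.6) and 61.3% on chromosome 4 (73 of 119, 52.4 to 69.6). On 3R it was 40.7% (33 of 81, 30.7 to 51.6), an interval that holds the share of the 6 arms. The rest of 2L, 3L and 3R had 30.5% (677 of 2220), just below that interval and below those of the other blocks. Regions scoring 1 or above covered 30.0% of chromosome 4 in the combined list and 29.4% and 29.1% in the replicate lists, where the rest of the arms had 12.5%, 11.6% and 11.5%. Such regions covered 21.6%, 17.9% and 19.9% of the 2L block, 20.5%, 19.6% and 19.5% of the 3R block, and 9.62%, 9.63% and 8.71% of the 3L block in these lists. At this limit 2L lay above 3R in the combined list and replicate 2 but below it in replicate 1, and 3L lay below the rest of the arms in all 3 lists. With only regions scoring no lower than the median of their list, coverage of chromosome 4 fell to 10.5% and 10.0% in the replicates, against 8.78% and 8.52% on the rest of the arms. The 3R block kept 14.3% and 14.2% there, and was the highest of the blocks in both replicates, while 2L had 11.0% and 8.74%. In the combined list chromosome 4 was highest under this filter, with 18.7% against 17.8% on 3R, 12.5% on 2L and 10.6% on the rest of the arms. The lead of 2L over 3R was thus not seen under this filter in any list.

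**Figure D1:**
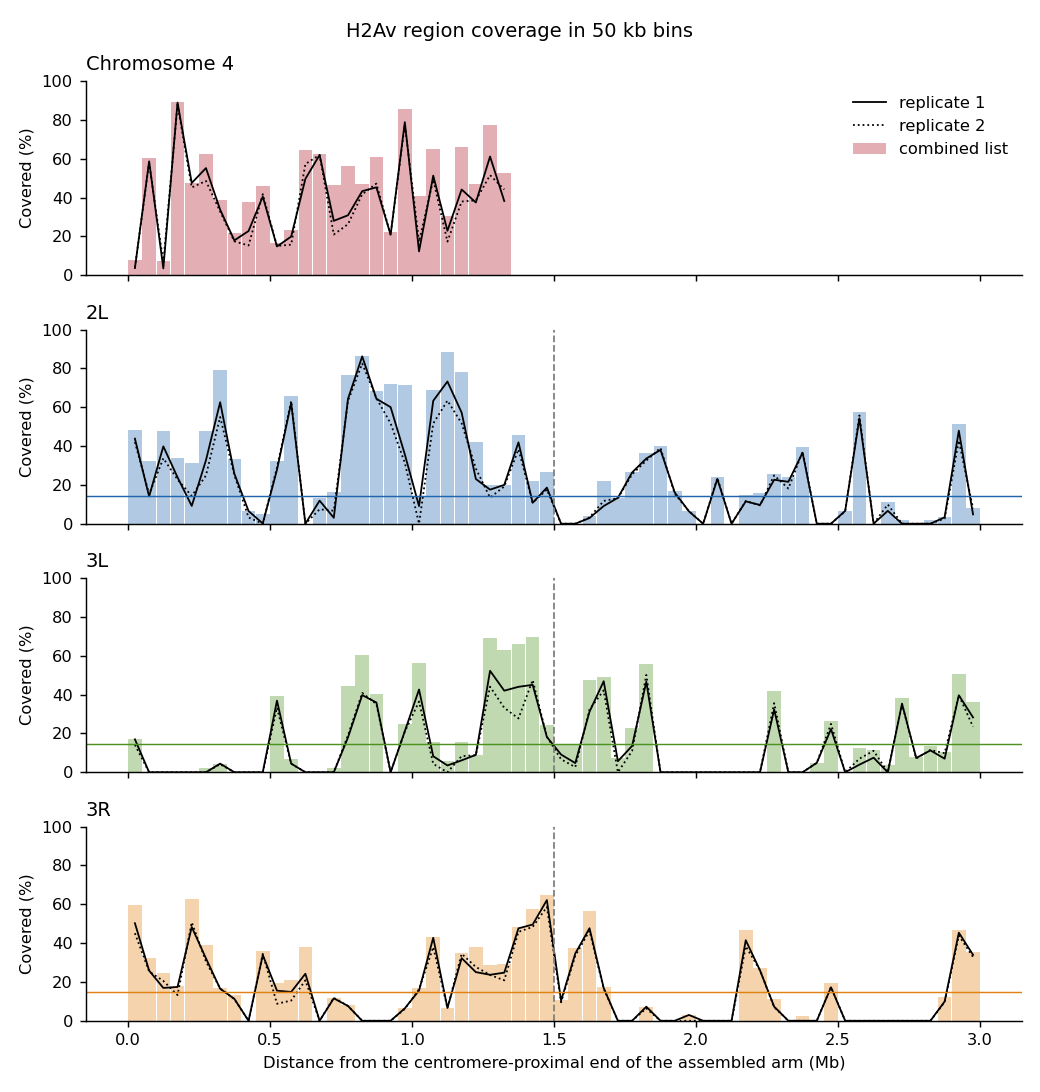
Share of each 50 kb bin covered by H2Av regions, against the distance from the centromere-proximal end of the assembled arm. Bars show the combined list, the solid line replicate 1 and the dotted line replicate 2. The dashed line marks the 1.5 Mb limit and the horizontal line the combined-list coverage of the arm beyond it. Chromosome 4 has calls in every bin. 2L is filled most between 0.75 and 1.2 Mb, 3L mainly beyond 0.75 Mb, and 3R in an inner and an outer stretch.

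Along the blocks the regions were not spread evenly, as the plot of coverage in 50 kb bins shows. Chromosome 4 had no empty bin among its 27, and its bins ranged from 7.10% to 89.3% covered. Cut into 5 equal parts from the proximal end, its coverage was 40.0%, 31.6%, 36.6%, 40.8% and 41.9% in replicate 1, and 39.8%, 29.0%, 35.1%, 41.7% and 38.9% in replicate 2. No such part of chromosome 4 came near the level of the rest of the arms. The first region of chromosome 4 ran from 3402 to 6708 and the last from 1345862 to 1348348, each in both replicate lists, so calls reached close to both ends of the assembled chromosome.

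On 2L the fill was highest some way out from the centromere. A single step fitted to the 50 kb bins of the proximal 5 Mb put the edge of the dense zone 1250 kb from the end in the combined list, with 46.4% covered inside and 16.3% outside. In both replicate lists the edge lay at 1400 kb, with 35.0% against 13.8% in replicate 1 and 32.2% against 13.7% in replicate 2. Such a fit always finds a step, and this one took up 28.5%, 20.0% and 17.1% of the variance between bins in the 3 lists, more than the steps of 3R (11.6%, 10.6% and 10.2%) and 3L (9.21%, 8.19% and 8.68%) described next. When a single stretch of higher coverage was fitted in place of a step, it ran from 750 to 1200 kb in all 3 lists, with 69.3% covered in the combined list and 57.1% and 51.1% in the replicates. That stretch held 46 combined-list regions, 37 of them scoring below 1. The innermost 750 kb held 54 regions and was 32.9% covered, with 24.2% and 22.8% in the replicates, still above the rest of the arm.

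3R had its edge farther out, and 3L had the reverse arrangement. On 3R the step lay at 1650 kb in the combined list and in replicate 1 and at 1700 kb in replicate 2, beyond the 1.5 Mb limit, with 26.7% covered inside and 12.8% outside in the combined list. The 3R block was made of an inner and an outer part. Its innermost 750 kb held 47 regions with 26.2% covered, the next 250 kb held 2 regions with 2.98%, and the outer 500 kb held 32 regions with 36.9%. Median combined scores were 0.86 in the inner part and 1.97 in the outer part, with 25 of 47 and 8 of 32 regions below 1. On 3L the step lay at 750 kb in all 3 lists, and coverage was lower inside it than outside. The combined list had 4.83% against 22.5%, replicate 1 had 4.18% against 17.8%, and replicate 2 had 3.73% against 16.8%. The innermost 750 kb of 3L held 10 regions, against 35 in the next 500 kb and 31 in the last 250 kb of the block. Every base of the assembled arm counted here, and whether reads could be placed in the stretches without calls was not tested. The last 250 kb of the block was 58.3% covered in the combined list and 40.3% and 34.1% in the replicates. Dense calls went on past the limit, with 30.0% of the stretch from 1500 to 1850 kb covered in the combined list. The limits of these parts were set after the profile was seen. With only regions scoring no lower than the list median, the step stayed at 1650 kb on 3R but moved to 50 kb on 2L and to 2700 kb on 3L, so the edges given for 2L and 3L depend on the lower-scoring regions. The 3L value depended on the window length: the mean of the replicate lists was 8.73% over 1 Mb, 14.1% over 1.5 Mb and 14.4% over 2 Mb.

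The 10 regions of the innermost 750 kb of 3L can be given one by one in outline. The region nearest the end ran from 24523510 to 24532176, 15.7 kb from the end at its midpoint, spanned 8.67 kb and scored 1.80, with 1.96 and 2.07 in the replicates. Then came 257 kb without a call in the combined list, and 298 and 299 kb in replicates 1 and 2, the longest gap of any block. Farther out, beyond another gap of 189581 bp in the combined list, lay a cluster of 5 regions between 23979518 and 24034026, all in both replicate lists. Its highest region, from 24012970 to 24016866, had a score of 2.63 and reached 2.42 and 2.85 in the replicates. Of the remaining 4 regions, that from 24223608 to 24225850 was in both replicate lists and scored 0.64. The other 3 spanned 1001 to 1191 bp and were in neither.

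**Figure D2:**
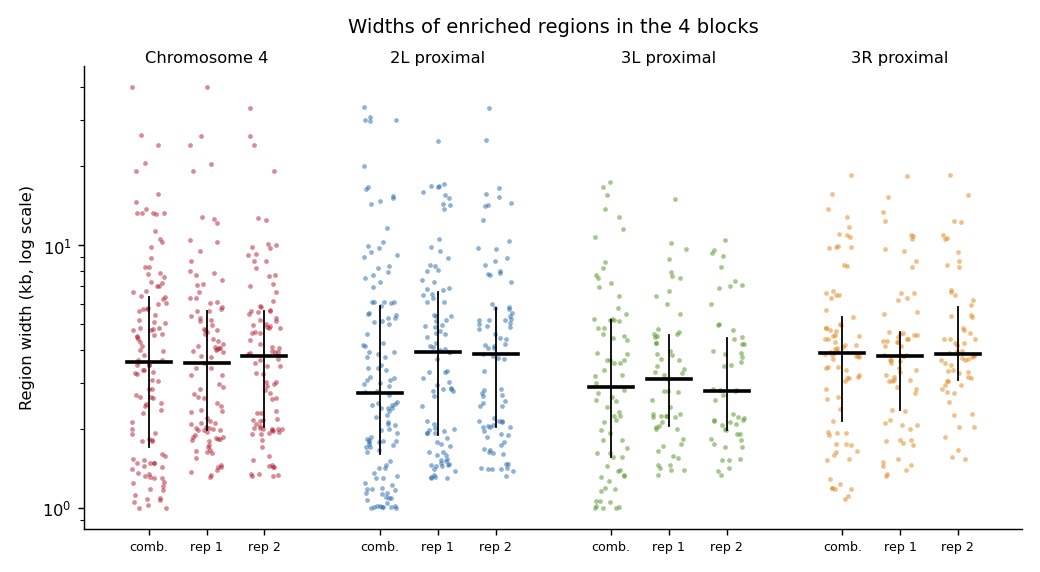
Widths of all enriched regions of each block in kb on a log axis, for the combined list and the replicate lists. Each point is a region, the thick line the median and the thin line the interquartile range. Medians lie between 2.74 and 3.91 kb, and the widest points are on chromosome 4 and 2L.

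Widths differed little at the median and more at the top. Median widths in replicates 1 and 2 were 3564 and 3776 bp on chromosome 4, 3911 and 3857 bp on 2L, 3780 and 3874 bp on 3R, and 3088 and 2790 bp on 3L. The 3L values were below all the others in both replicate lists, and the rest of the arms had 3581 and 3591 bp. In the combined list the medians were 3581, 2737, 3877 and 2900 bp in the order chromosome 4, 2L, 3R, 3L, so 2L, above chromosome 4 and 3L in both replicate lists, was the narrowest there. The combined list also holds narrow regions that the replicate lists lack. Regions of at least 10 kb made up 8.62% of the combined list on the 6 arms, and 13.4% on chromosome 4 (16 regions), 11.3% on 2L (14), 9.88% on 3R (8) and 9.21% on 3L (7). These wide regions held 42.6% of the region length on chromosome 4 and 44.8% on 2L, against 31.0% on 3L, 27.2% on 3R and 21.3% on the rest of the arms. In replicates 1 and 2 the shares were 36.5% and 29.7% on chromosome 4, 38.1% and 37.0% on 2L, 27.7% and 28.7% on 3R, but 11.3% and 5.23% on 3L.

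The widest regions show how the wide stretches differ. The 3 widest of chromosome 4 spanned 40.3, 26.4 and 24.2 kb and scored 1.57, 1.62 and 1.66, and the third of these, from 61890 to 86108, was a single region in each replicate list, covering 99.5% of it in both. On 2L the 3 widest spanned 33.7, 30.8 and 30.1 kb. The first overlapped 2 regions in replicate 1 and 1 in replicate 2, and the second 2 in each. The third, from 21840578 to 21870724, scored 0.70 and was broken into 5 regions in each replicate list, which covered 73.9% and 79.2% of it. The region nearest the end of 2L, from 22955936 to 22985654, spanned 29.7 kb and scored 1.81, with 3 pieces in replicate 1 and 4 in replicate 2. On 3L the widest, from 23682862 to 23700340, was 17.5 kb wide, scored 0.78 and was called as 3 and 4 pieces covering 83.1% and 81.5%. All of the 3 widest regions of 3R, of 18.6, 15.8 and 13.8 kb, were single regions in each replicate list. The widest ran from 211914 to 230506 and scored 2.26. On chromosome 4 the region of 26.4 kb was also single in each list, and that of 40.3 kb was single in replicate 1 and in 2 pieces in replicate 2. Of all combined-list regions, 17 on chromosome 4 (14.3%), 12 on 2L (9.68%), 11 on 3L (14.5%) and 6 on 3R (7.41%) overlapped more than 1 region in at least 1 replicate list, against 7.93% on the rest of the arms.

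Wide regions tended to score higher. Spearman's rho between width and score, across regions of the combined list, was 0.70 on chromosome 4, 0.66 on 2L, 0.73 on 3R and 0.38 on 3L, where regions share libraries and neighbours. In replicate 1 the 3L value was 0.59, again the lowest, against 0.75 on chromosome 4, 0.72 on 2L, 0.73 on 3R and 0.67 on the rest. In replicate 2 it was 0.75 and the highest, against 0.69, 0.69, 0.65 and 0.64 in the same order, so the low value was not seen in every list. Regions of 2L scoring 1 or above had a median width of 9117 bp, against 6682 bp on chromosome 4, 4841 bp on 3L, 4546 bp on 3R and 4443 bp on the rest of the arms. Below 1 the medians lay between 1897 and 2249 bp in all blocks, with 1989 bp on the rest. In replicates 1 and 2 the high-scoring regions of 2L again had the largest medians, 6448 and 7758 bp.

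**Figure D3:**
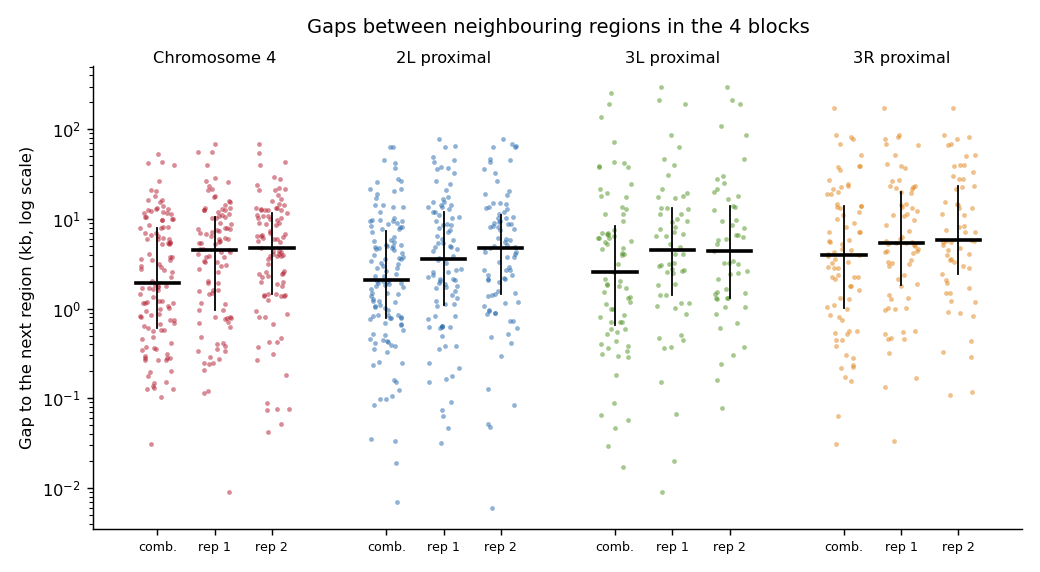
Distance in kb, on a log axis, from the end of each region to the start of the next within a block, for the combined list and the replicate lists. Each point is a gap, the thick line the median and the thin line the interquartile range. The longest gaps are on 3L and 3R, and the combined list has the shorter median in every block.

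Median gaps between neighbouring regions were a few kb in every block, and the longest gaps were on 3L and 3R. Median gaps in replicates 1 and 2 were 4538.5 and 4736 bp on chromosome 4, 3537.5 and 4720.5 bp on 2L, 4490.5 and 4413 bp on 3L, and 5408 and 5781 bp on 3R. The values of 2L spanned those of 3L, and 3R was above the other blocks in both lists. The rest of the arms had 6512.5 and 6860 bp. In the combined list the medians were 1926, 2069, 2581 and 3974 bp in the order chromosome 4, 2L, 3L, 3R. In the combined list gaps under 1 kb were 20.2% of all gaps on the 6 arms and 17.9% on the rest of 2L, 3L and 3R, and 34.7% on chromosome 4 (41 of 118, interval 26.8 to 43.7), 33.3% on 3L (25 of 75, 23.7 to 44.6), 31.7% on 2L (39 of 123, 24.1 to 40.4) and 23.8% on 3R (19 of 80, 15.8 to 34.1). In replicate 1 the shares were 26.0% on chromosome 4 (interval 18.4 to 35.4), 24.5% on 2L (16.9 to 34.0), 17.2% on 3L and 17.1% on 3R, against 15.3% on the rest of the arms. In replicate 2 they were 18.6%, 19.8%, 15.1% and 13.1% in the same order, against 15.2%, and all 4 intervals held the share of the rest. The share on chromosome 4 and 2L was thus above that of the rest in the combined list and replicate 1, and on 3L in the combined list only, beyond counting error. With only regions scoring no lower than the list median, which leaves fewer regions by construction, median gaps of the combined list were 12027 bp on 3R and 15569 bp on chromosome 4, and 46137 and 60345 bp on 2L and 3L.

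Among the blocks, long gaps took up more of 3L and 3R than of chromosome 4 and 2L in all 3 lists. On the rest of 2L, 3L and 3R they took up a larger share of the length than in any block. That rest, of 71.0 Mb, had 339 gaps over 50 kb in the combined list, with 43339 kb in all. In replicates 1 and 2 it had 350 and 348, with 45297 and 45559 kb. In the combined list gaps over 50 kb numbered 1 on chromosome 4 and 2 on 2L, with 53.1 and 127 kb in all, against 4 on 3L with 655 kb and 6 on 3R with 539 kb. In replicate 1 there were 3 on chromosome 4 with 180 kb and 3 on 2L with 207 kb, against 5 on 3L with 849 kb and 7 on 3R with 607 kb. In replicate 2 there were 2 on chromosome 4 with 123 kb and 5 on 2L with 339 kb, against 5 on 3L with 900.2 kb and 8 on 3R with 657 kb, so 2L and 3L had equal numbers there. The longest gap of chromosome 4 ran from 508451 to 561559 (53.1 kb) in the combined list. In both replicate lists it was longer, at 67.8 and 68.2 kb, and the region that closes it in the combined list, 1345 bp wide with a score of 0.38, was in neither. On 2L the longest gap spanned 63.6 kb, from 22355953 to 22419549, in the combined list, while in both replicates the longest was another one, of 77.7 and 78.2 kb. The longest gap of 3R, 171.6 kb from 780509 to 952085, had nearly the same ends in all lists, with 171.8 and 171.9 kb in the replicates. It lay between a region scoring 1.20 and one scoring 1.13, both in both replicate lists.

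Regions also gathered into runs with less than 1 kb between neighbours. These runs are made of the same short gaps as above, and short gaps become more frequent with more regions per length. Whether regions cluster beyond their density was not tested. On chromosome 4, 63 of the 119 regions lay in 22 such runs, on 2L 66 of 124 in 27, on 3L 37 of 76 in 12 and on 3R 36 of 81 in 17. These are 52.9%, 53.2%, 48.7% and 44.4% of the regions, against 35.5% over the 6 arms and 32.1% on the rest of the arms. The share of the rest lies inside none of the 4 intervals, and that of the 6 arms inside that of 3R (34.1 to 55.3) only. In replicates 1 and 2 the shares were 43.6% and 31.6% on chromosome 4, 45.3% and 34.5% on 2L, 28.8% and 27.8% on 3L, and 31.0% and 25.8% on 3R, against 27.6% and 27.7% on the rest of the arms. In replicate 2 the intervals of all 4 blocks held the share of the rest. The run with most regions was on 3L, with 7 regions over 39.8 kb from 23682862 to 23722672, 95.9% filled, and a median score of 0.53. That of chromosome 4 had 6 regions over 26.9 kb from 1079774 to 1106694 with a median score of 0.41, and of the 2 runs of 5 regions on 2L the one from 21792312 to 21830856 spanned 38.5 kb with 0.81. On 3R the most regions in a run were 4, over 12.1 kb. In replicate 1 the most were 4 on chromosome 4 and 3 in each other block, and in replicate 2 they were 4 on chromosome 4 and 2L, 3 on 3L and 2 on 3R.

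The lists hold no record of maxima inside regions, so regions that scored above both neighbours were counted as local maxima of the score. The first and last region of a block or arm were compared with their only neighbour inside it. Local maxima were 33.0% of the combined list on the 6 arms, and 32.8% on chromosome 4 (39 of 119), 33.1% on 2L (41 of 124), 30.3% on 3L (23 of 76) and 29.6% on 3R (24 of 81). All 4 intervals held the share of the arms. A share close to this arises in a series of independent values in random order, and it did not set the blocks apart. Per length, chromosome 4 had 28.8 maxima per Mb and 2L 27.3, against 16.0 on 3R, 15.3 on 3L and 10.2 on the rest of the arms. With near-equal shares, these values follow the number of regions per Mb and add nothing to it. Their median combined score was 1.02 on 2L, 1.42 on chromosome 4, 1.56 on 3L, 2.04 on 3R and 2.19 on the rest of the arms. The highest maximum of chromosome 4, from 806728 to 811208, had a score of 2.93 and reached 2.95 and 2.97 in the replicates. That of 2L, from 21655410 to 21660450, scored 2.69, reached 2.54 and 2.86, and lay outside the stretch of highest coverage. That of 3R, from 258328 to 264624, scored 2.72, against 2.61 and 2.88 there. On 3L the highest score, 2.84, belonged to a 1001 bp region from 24265052 to 24266052 that neither replicate list held. The next, from 23329386 to 23333910, scored 2.66, with 2.64 and 2.75.

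**Figure D4:**
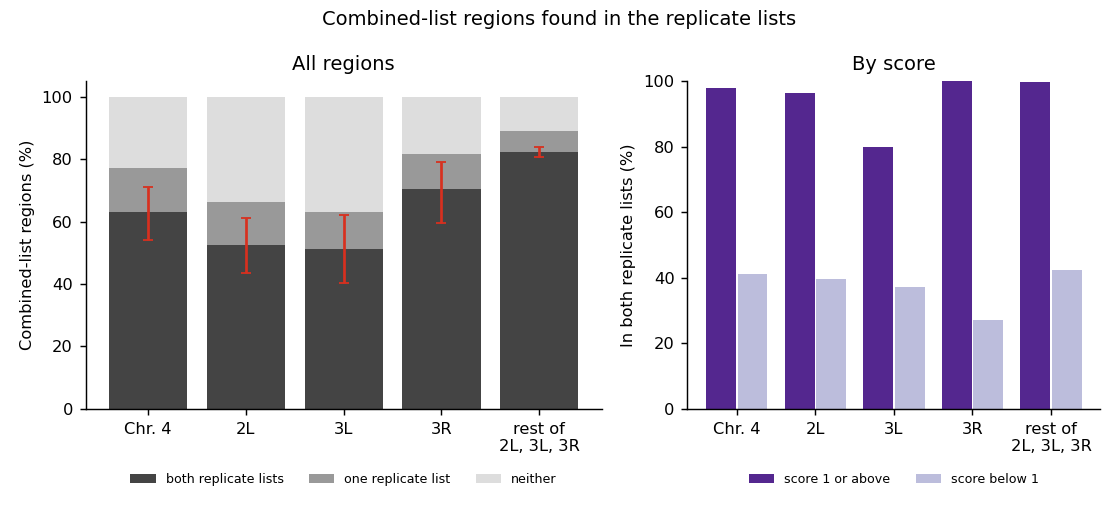
Left, shares of combined-list regions found in both, in 1 or in neither of the replicate lists by an overlap of at least 1 bp, with 95% Wilson intervals for the share in both. Right, the share in both replicate lists for regions scoring 1 or above and below 1. Shares in both lists lie between 51.3% and 70.4% in the blocks, and differ between the score classes in each block.

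Fewer combined-list regions were found in both replicates in all 4 blocks than on the rest of 2L, 3L and 3R. Against the 6 arms, which include the blocks, the interval of 3R alone held the share of the arms. Over the 6 arms 77.1% of combined-list regions overlapped both replicate lists, 8.94% 1 list only and 14.0% neither. On the rest of 2L, 3L and 3R these shares were 82.2%, 6.89% and 10.9%, and 82.2% lies above the intervals of all 4 blocks. Shares in both lists were 70.4% on 3R (57 of 81, interval 59.7 to 79.2), 63.0% on chromosome 4 (75 of 119, 54.1 to 71.2), 52.4% on 2L (65 of 124, 43.7 to 61.0) and 51.3% on 3L (39 of 76, 40.3 to 62.2). Shares in neither were 18.5% on 3R (15 regions), 22.7% on chromosome 4 (27), 33.9% on 2L (42) and 36.8% on 3L (28). Since the combined list was made for these replicates, its overlap with their lists is a description only. Directly between the replicates, 87.1% of the replicate 1 regions on chromosome 4 overlapped replicate 2, with 81.1% on 2L, 83.1% on 3L and 87.3% on 3R. The 6 arms had 91.9%, and the rest of 2L, 3L and 3R had 93.9%. In the other direction the shares of the blocks were 89.8%, 93.1%, 92.6% and 95.2%, against 95.7% and 97.0%. The sequence called in both lists was 88.0% of that called in either on 3R, 81.8% on chromosome 4, 80.3% on 2L and 73.6% on 3L, with 90.0% on the rest of the arms.

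Agreement followed the score, and the higher-scoring 3L regions outside both lists were all narrower than any replicate region. Of regions scoring 1 or above, 48 of 48 on 3R, 45 of 46 on chromosome 4, 27 of 28 on 2L and 20 of 25 (80.0%) on 3L were in both replicate lists, with 99.7% on the rest of the arms. Of those below 1, 41.1% on chromosome 4 (30 of 73), 39.6% on 2L (38 of 96), 37.3% on 3L (19 of 51) and 27.3% on 3R (9 of 33, interval 15.1 to 44.2) were in both, with 42.2% on the rest of the arms, a share that lies inside each block's interval. The 7 regions scoring 1 or above that were not in both were in neither, and 6 of them were narrower than 1301 bp, the narrowest region of any replicate list. On 3L the 5 such regions spanned 1001 to 1191 bp, so every 3L region scoring 1 or above and at least 1301 bp wide was in both lists. Of the 5, 2 scored above 2: that from 24265052 to 24266052 with 2.84 and that from 23386456 to 23387516 with 2.18. The exception in width was on 2L, from 22232122 to 22233976, with 1855 bp and a score of 1.26. The combined list goes down to 1001 bp, and 6.96% of its regions on the 6 arms were narrower than 1301 bp, against 23 of 124 on 2L, 13 of 119 on chromosome 4, 12 of 76 on 3L and 8 of 81 on 3R. All but 1 of these 56 narrow regions, on 2L, were in neither replicate list. Without them, the share in neither was 25.0% on 3L (16 of 64), 19.8% on 2L (20 of 101), 13.2% on chromosome 4 (14 of 106) and 9.59% on 3R (7 of 73), against 5.78% on the rest of the arms.

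Regions in neither replicate list were narrow and low in score. Their median width lay between 1232 and 1325 bp in the 4 blocks and their median score between 0.35 and 0.45. The widest was on chromosome 4, from 1022280 to 1025946, with 3667 bp and a score of 0.30, followed by one on 2L, from 22754434 to 22757794, with 3361 bp and 0.79. Sequence in the combined list that no replicate list covered came to 84.4 kb on chromosome 4, 112.4 kb on 2L, 76.9 kb on 3L and 44.7 kb on 3R. That is 13.2%, 17.4%, 24.1% and 11.5% of the combined-list coverage there, against 8.03% on the rest of the arms. Of it, 37.1, 63.0, 40.5 and 21.04 kb lay in regions found in neither list, and the remainder in wider edges or joined gaps of regions that a replicate list did hold.

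**Figure D5:**
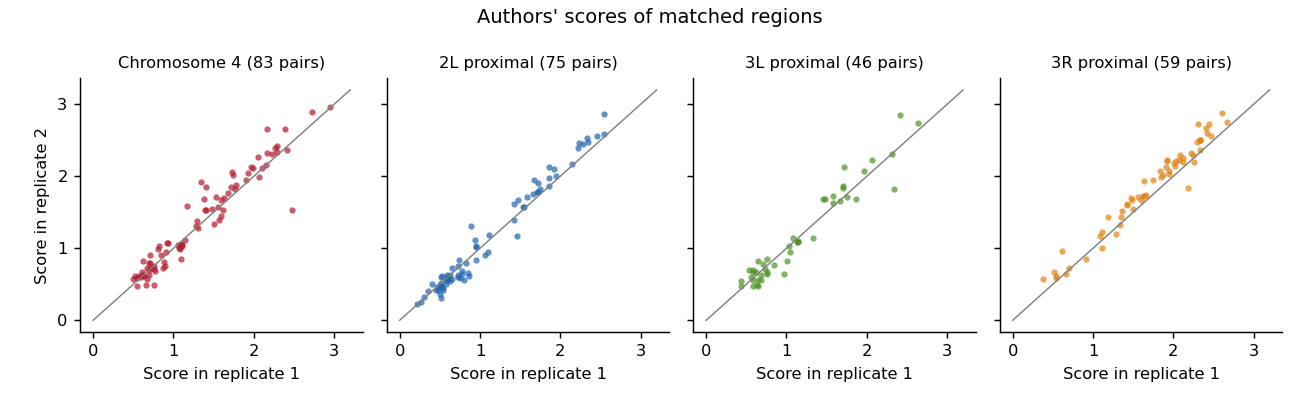
Authors' scores of regions matched between the replicate lists, replicate 1 on the horizontal and replicate 2 on the vertical axis, 1 panel per block. Points are matched pairs and the line marks equal scores. Most 3R points lie above the line, and the low-scoring points of 2L and 3L lie on both sides of it.

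Regions matched between the replicates, as each other's largest overlap, had similar scores and less similar edges. There were 83 pairs on chromosome 4, 75 on 2L, 46 on 3L and 59 on 3R, and Spearman's rho of their scores was 0.96, 0.97, 0.93 and 0.98, across regions that share their libraries. Replicate 2 scored higher in 88.1% of the pairs on 3R, 66.3% on chromosome 4, 57.3% on 2L and 50.0% on 3L, against 79.0% on the rest of the arms. Among pairs whose mean score was 1 or above, the shares were 90.2% on 3R, 90.3% on 2L, 70.0% on chromosome 4 and 59.1% on 3L (interval 38.7 to 76.7), with 85.5% on the rest. Below 1 they were 34.1% on 2L, 41.7% on 3L, 60.6% on chromosome 4 and 75.0% of 8 pairs on 3R, with 44.2% on the rest. Starts of matched pairs lay a median of 75 bp apart on 3R, 170 bp on chromosome 4, 178 bp on 3L and 216 bp on 2L, against 82 bp on the rest of the arms. Ends lay 62, 134, 179.5 and 163 bp apart in the same order of blocks, against 81 bp. Among pairs scoring 1 or above the median distance between starts was 74 bp on 3R, 99 bp on chromosome 4, 108 bp on 3L and 110 bp on 2L, with 79 bp on the rest. Below 1 it was 240.5, 586, 370 and 300 bp, with 117 bp on the rest, so edges of low-scoring regions lay farther apart in the blocks than on the arms. This difference was not tested.

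At the 1.5 Mb limit the regions just inside and outside were as follows. On 2L the last region inside, from 21544314 to 21546138, scored 0.30 and was in neither replicate list, and the first outside, from 21396268 to 21398140, scored 0.28 and was in both. On 3L the region inside, from 23065216 to 23066594, scored 0.80 and was in neither, and that outside, from 23012070 to 23015002, scored 0.49 and was in both. On 3R the region inside, from 1497452 to 1499200, scored 0.46 and was in replicate 1 only, while that outside, from 1508222 to 1513510, scored 2.54 and was in both.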

How the data were processed

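H2Av chromatin immunoprecipitation and sequencing was done on S2-DRSC cells given 50 µg and then 200 µg of double-stranded RNA, per the labels' protocols. Samples were grouped and numbered by their titles; the description of the second immunoprecipitation reads as input and that of the first input names the antibody, so an exchange of these labels cannot be told apart from an error in the descriptions, and titles were followed. The authors deposited 3 lists of enriched regions, each region with a score of unstated scale. Per the submitters' processing notes Bowtie 0.12.7 was among the tools, and positions are on FlyBase release 5 per the file headers. How regions were called, at which threshold and with what use of the input is not given in the sources used. Only start, end and score of records typed as enriched were used.

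The share of bases covered, widths, gaps, overlaps of at least 1 bp and matched pairs were computed with Python 3.11.15 using pandas 2.3.3, SciPy 1.17.1 and NumPy 2.4.6, and drawn in matplotlib 3.10.9. The functions for overlap, step and stretch fits were tested on simulated data. The members, the score limit of 1 and the lists of values were chosen with earlier results of these data known. Named regions were, per block, the 3 widest, the 3 highest-scoring, those at the ends, limits and longest gaps, the run with most regions and the widest found in neither replicate list; those scoring 1 or above outside both lists, the regions of the innermost 3L and the parts of the blocks were chosen after their values were seen. The planned count of local-maximum records was not run, since the lists used here hold 0 such records. Depth per sample is unknown, so no interval for depth is given. Coverage, gaps and edges used the full assembled lengths, and repeats or other sequence where reads cannot be placed were not taken out.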

Additional observations from a re-analysis of the deposited data

How the results depend on the processing

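No paired analysis was possible because the results come from no test and lists of the inputs were not used here. Leaving out each replicate in turn gave coverage of 36.9% to 38.2% on chromosome 4, 31.0% to 33.6% on 2L, 13.3% to 14.9% on 3L and 21.1% to 22.1% on 3R. In the order chromosome 4, 2L, 3L, 3R, coverage in the combined list was 47.5%, 43.1%, 21.2% and 25.9%. With only regions scoring no lower than the median of their list, which covers less by construction, the mean of the replicate lists was 10.3%, 9.88%, 2.19% and 14.3%, with 3R highest, while the combined list had 18.7%, 12.5%, 5.15% and 17.8%, with chromosome 4 highest. A 1 Mb window gave 8.73% on 3L and 16.2% on 3R, and a 2 Mb window, added after seeing the data, 27.9% on 2L, 14.4% on 3L and 19.1% on 3R, as means of the replicate lists. In the same order of blocks, this score filter gave median widths of 6232, 7709, 4459 and 4858 bp and median gaps of 15569, 46137, 60345 and 12027 bp, with fewer regions by construction. Merging regions within 200 bp gave widths of 4127, 2779 and 3181 bp on chromosome 4, 2L and 3L, and gaps of 2853 bp on chromosome 4 and 4123 bp on 3L. Median widths that moved in a replicate list were 3776 bp (replicate 2) on chromosome 4, 3911 and 3857 bp on 2L and 3780 bp (replicate 1) on 3R. Median gaps in replicates 1 and 2 were 4538.5 and 4736 bp on chromosome 4, 3537.5 and 4720.5 bp on 2L, 4490.5 and 4413 bp on 3L, and 5408 and 5781 bp on 3R, and the cause was not tested. Asking for 50% reciprocal overlap, a stricter match by construction, left 48.7% of regions on chromosome 4 and 42.7% on 2L in both replicate lists. With the score filter 100% were on chromosome 4 (28 of 28), 2L (20 of 20) and 3R (38 of 38), and 80.0% on 3L (12 of 15). Without regions narrower than 1301 bp, added after seeing the data, the share on 2L was 64.4%. The edge of the dense zone moved to 1400 kb on 2L, 700 kb on 3L and 1700 kb on 3R with 100 kb bins. It moved to 50 kb on 2L and 2700 kb on 3L with the score filter, so neither edge was found in the higher-scoring regions. In the replicate lists it lay at 1400 kb on 2L in both and at 1700 kb on 3R in replicate 2. The outer end of the best single stretch, also added, was at 1200 kb on 2L and 1450 kb on 3L in the combined list, but at 4250 kb on 3L in replicate 2. The alternatives planned for local maxima per region were not run, since the lists used here hold no such records. A fit over 3 Mb left the 3 edges in place. Depth is unknown, so how it limits the narrow and low-scoring regions was not analysed here.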
